A study of Mus musculus with 6 samples.

Results

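Cytosolic ribosomal proteins are the protein components of the ribosome that works in the cytoplasm, and their genes were followed here across 6 libraries of mouse skeletal muscle. Members were the gene rows whose symbol starts with Rpl or Rps and a number, together with Rplp0, Rplp1, Rplp2 and Rpsa. The ribosomal S6 kinases and symbols marked as pseudogenes were left out. The rule uses no measured value and takes 86 of the 22036 gene rows. Of these, 46 encode proteins of the large subunit, 31 encode proteins of the small subunit and 8 are variant copies of another member (Rpl3l, Rpl22l1, Rpl7l1, Rpl36al, Rps27l, Rpl39l, Rpl10l and Rps27rt). The remaining gene, Rps19bp1, is caught by its symbol and encodes a protein that binds Rps19 and is not part of the ribosome.

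All 6 libraries came from skeletal muscle of mice with a knockout of PRR14, a nuclear protein. In 3 of them the muscle had been injected with AAV, a viral vector used to bring genes into tissue, that carried MEF2C-GFP, and in the other 3 with AAV carrying GFP, each for 1 month. MEF2C is a transcription factor of muscle, and GFP is a fluorescent marker protein. The series asks what added MEF2C does to gene expression in this knockout muscle. The labels give no muscle, age, sex, viral promoter or dose, no library here is from wild-type or uninjected muscle, and nothing says that the replicates are separate animals, so that each p-value reflects no more than the scatter among the 6 samples, which may be technical.

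A ribosome holds 1 copy of most of its proteins, and cells make the proteins in matched amounts, so their mRNAs tend to be abundant, short and regulated together. In vertebrates most of these mRNAs begin with an uninterrupted run of pyrimidines, the 5′ terminal oligopyrimidine (TOP) tract, through which mTOR signalling and the RNA-binding protein Larp1 set how much of the mRNA is translated, often without a change in its level. In striated muscle Rpl3l, a copy of Rpl3, is made in addition to or in place of Rpl3, which lies close to the catalytic centre of the large subunit.

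The start of transcription is shown first for genes that the results return to, because the pyrimidine run there is the sequence feature this family is known for. Each line gives 20 bases before the annotated start and the 20 bases from it, read on the gene's strand from RefSeq promoter sequences of GRCm38.p6, with the longest run of C and T in capitals.
Rps6, chr4:86857348-86857387, minus strand: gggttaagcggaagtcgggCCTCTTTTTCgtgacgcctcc
Rpl35, chr2:39005112-39005151, minus strand: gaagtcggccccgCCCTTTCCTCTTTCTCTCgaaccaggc
Rplp2, chr7:141447631-141447670, plus strand: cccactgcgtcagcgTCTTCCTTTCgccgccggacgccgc
Rps24, chr14:24490658-24490697, plus strand: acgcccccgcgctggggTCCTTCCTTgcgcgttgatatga
Rpl38, chr11:114668560-114668599, plus strand: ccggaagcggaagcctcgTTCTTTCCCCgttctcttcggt
Rps12, chr10:23787190-23787229, minus strand: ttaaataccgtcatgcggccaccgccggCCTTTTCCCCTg
Rps27l, chr9:66946066-66946105, plus strand: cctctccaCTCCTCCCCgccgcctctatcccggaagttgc
Rpl41, chr10:128549149-128549188, minus strand: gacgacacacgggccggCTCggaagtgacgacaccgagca
Rpl3l, chr17:24727806-24727845, plus strand: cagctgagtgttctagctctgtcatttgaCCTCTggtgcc
In Rps6, Rpl35, Rplp2, Rps24 and Rpl38 the run spans the annotated start or lies against it. It lies downstream of the start in Rps12 and before it in Rps27l. No run of 6 or more is present in these windows of Rpl41 and Rpl3l. Rps24, Rps27l and Rpl3l each have a second annotated start further downstream, and only the first is shown. At the second start the longest run is 7 bases in Rps24, beginning at base 12 from that start, and 4 bases in Rps27l and in Rpl3l.

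Promoter sequences were matched for 65 of the 85 ribosomal protein members. A run of at least 6 pyrimidines lay within 20 bases of a start in 44 of the 65 genes (67.7%), against 41.2% of the 27025 genes in the promoter table. On the opposite strand the share was 20%, against 43.8% of all genes. Of the mitochondrial ribosomal protein genes, which serve the separate ribosome of mitochondria, 43.5% held such a run on the sense strand. Such a run may lie wholly before the annotated start, as in Rps27l, so these are not shares of genes with a TOP tract. In the 300 bases around the start (250 before and 50 after), searched on both strands, CTTCCG, the core that ETS-family factors bind, was present in 43 of the 65 genes (66.2%) and in 18.8% of all promoters. GGGCGG, the core of an Sp1 site, was present in 40 of them (61.5%) and in 38.2% of all promoters. TATAAA was present in 7 (10.8%) and in 15.7% of all promoters.

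The consensus site of MEF2, the family of the protein carried by the virus, was found in 1 of the 65 genes (1.54%), against 3.70% of all promoters. That gene was Rpl3l, where the match lies 123 bases before the second of its annotated starts, with the motif in capitals.
Rpl3l, chr17:24732552-24732581, plus strand: aaatgtcagcTTAAAAATAGcaccagccct
These are matches of letters, and whether MEF2C binds there was not measured.

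Listed counts per library ranged from 3370833 to 3900617, with 13001 to 13637 genes detected, and the 10 most abundant genes held between 25.5% and 27.0% of reads in libraries labelled MEF2C and 29.2% to 32.9% in GFP libraries. Mef2c itself stood at 234, 196 and 371 normalised CPM (CPM, read counts scaled to a common library size with edgeR's TMM method) in the MEF2C group and at 223, 261 and 236 in the GFP group, each in the order of replicates 1, 2 and 3, which is kept throughout. The groups overlap for this gene, so directions below are those of libraries labelled MEF2C. Prr14 had 30, 23 and 20 counts in the MEF2C group and 11, 12 and 15 in the GFP group. Reads of the knocked-out gene were thus present in all 6 libraries and more frequent in the MEF2C group, and no wild-type library was analysed here to set them against. MEF2C replicate 1 stands apart by its summed level of 8 markers of granulocyte precursors and bone, 1098 CPM against 32.0 to 95.4 in the other 5 libraries, and by 5 erythroid genes, 8678 against 2781 to 5258, though the erythroid sum was also higher in each library labelled MEF2C (at least 4613) than in any GFP library (at most 4030). The 6 slow-fibre markers summed to 1201, 1238 and 263 CPM in MEF2C replicates 1 to 3 and to 52.7 to 89.2 in the GFP libraries. The 7 markers of muscle fibres summed to 131613 to 137164 CPM in the MEF2C group and 154052 to 168321 in the GFP group, and none of these markers was at 0 in all libraries.

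Ribosomal protein mRNAs were among the most abundant in this muscle, and 85 of the 86 members were detected in every library. Rpl10l, a copy of Rpl10 known from testis, had 0 counts in all 6, where 3 counts in a library correspond to 0.769 to 0.890 CPM. Rpl39l, a copy of Rpl39 also known from testis, had 9, 13 and 6 counts in the MEF2C group and 7, 3 and 15 in the GFP group. These 2 genes did not pass the filter on low counts, and the other 84 were tested. Of the 84, 35 had a mean of at least 1000 normalised CPM and 3 had a mean under 100.

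Rpl41, which encodes the smallest ribosomal protein, had the highest level in CPM and also per kilobase of transcript, with a mean of 4740 normalised CPM per kilobase. Rplp1 of the ribosomal stalk followed on both scales at 4147 CPM per kilobase, ahead of Rps28 (3433) and Rps27 (3157). In mean normalised CPM Rps28 and Rps27 ranked 12 and 25 among the members. Rpl35, Rps14 and Rplp0 complete the 5 most counted members in CPM. These 5 genes together took 13.0% of the counts of the family. At the low end per kilobase, among tested members, stood Rpl7l1 (13.6) and the non-ribosomal Rps19bp1 (29.5). In mean normalised CPM Rps19bp1 (24.7) lay below Rpl7l1 (35.5). The reads are Oxford Nanopore cDNA reads, whose number need not rise with transcript length, so values per kilobase are not transcript numbers. Transcript lengths were those of the main annotated transcript, 345 to 5179 bases with a median of 836.5, against a median of 2906 over all genes with counts.

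The family took 8.08%, 8.004% and 6.93% of the listed counts in the MEF2C group and 7.42%, 7.30% and 7.44% in the GFP group. MEF2C replicates 1 and 2 lay above every GFP library and MEF2C replicate 3 below every one, so the groups overlap. The means were 7.67% ± 0.644 (SD, n = 3) and 7.39% ± 0.0777 (SD, n = 3), and the exact Clopper-Pearson intervals (95%) of single libraries, such as 8.06% to 8.11% in MEF2C replicate 1, cover counting error only. When the 50 most abundant other genes were left out of the denominator, the shares were 14.6%, 14.1% and 12.8% against 14.3%, 14.97% and 14.3%. The order of the group means then turned, to 13.8% ± 0.955 and 14.5% ± 0.390.

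**Figure D1:**
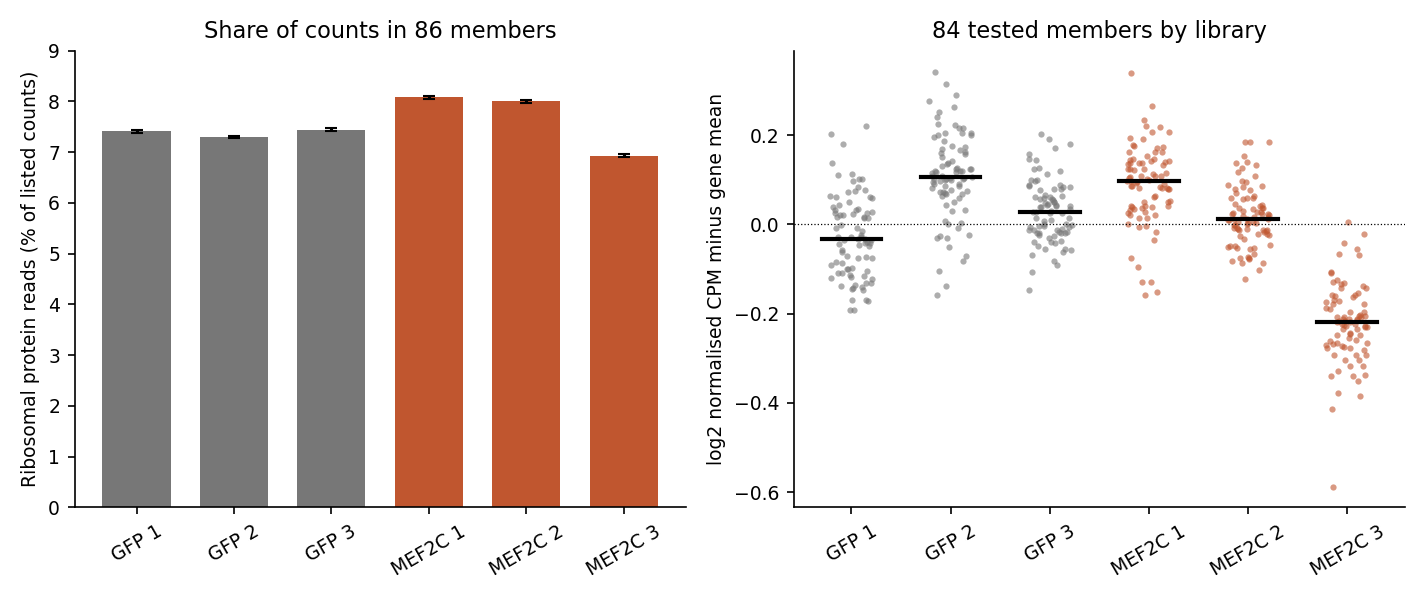
Left, bars give the percent of listed counts in the 86 members for each library, with exact 95% intervals for counting error; right, each point is 1 of the 84 tested members as its log2 normalised CPM minus its own mean over the 6 libraries, and black lines are medians. In MEF2C replicate 3, at 6.93% of counts, 83 of 84 members lie below their own mean.

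The members stood high or low together in single libraries of both groups. On the log2 scale, relative to each gene's mean over the 6 libraries, the median member stood at 0.10, 0.01 and -0.22 in the MEF2C group and at -0.03, 0.11 and 0.03 in the GFP group. On this scaling MEF2C replicate 1 and GFP replicate 2 were the high libraries, with 74 and 73 of the 84 members above their own mean, and MEF2C replicate 3 was the low one, with 83 below. With library totals in place of TMM the medians were 0.11, 0.08 and -0.10 against -0.03, -0.04 and -0.02, so that GFP replicate 2 was no longer high and MEF2C replicate 2 was, with 26 and 75 members above their own mean. Over all 9229 genes tested the medians ranged from -0.01 to 0.02 with TMM. With library totals they ranged from -0.15 in GFP replicate 2 to 0.13 in MEF2C replicate 3. Small and large subunit genes moved with the family: on TMM scaling their medians in MEF2C replicate 3 were -0.23 and -0.22, with 31 of 31 and 45 of 46 genes below their own mean.

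Of the 84 tested members, 73 had their lowest normalised CPM in MEF2C replicate 3 and none had its highest there. The ratio of MEF2C replicate 3 to the mean of the other 5 libraries had a median of 0.832 and ran from 0.613 for Rpl41 to 1.00 for Rpl13a, a member that also has a role in the GAIT complex of translational repression. With library totals, 76 of 84 members lay below their own mean in that library, where the median over all genes was 0.13. The 78 mitochondrial ribosomal proteins, on TMM scaling, had medians of 0.08, 0.07 and -0.13 in the MEF2C group and -0.09, 0.06 and 0.04 in the GFP group, with MEF2C replicate 3 lowest. With library totals it was not their lowest library, at -0.02 against -0.09 in both GFP replicates 1 and 2.

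Transcript length moved with the level in MEF2C replicate 3. Among genes outside the family, those of 500 to 700 bases had a median of -0.12 there and those of 700 to 1000 bases -0.09, while genes over 2000 bases had a median of 0.07. Members of the same length classes stood at -0.22 and -0.21, and the 6 members over 2000 bases stood at -0.23. The low level of the family in this library was present in every length class of the members. These classes use the annotated main transcript, such as 5179 bases for Rps15a, and not the length that was sequenced. The part of length was not tested. With a correction for annotated length in the fit, the median log2 difference between the groups was -0.13. Across the 83 tested members that encode ribosomal proteins, log2 group differences had a Pearson r of -0.12 and a Spearman rho of -0.12 with log10 transcript length, as a description of genes that share the same 6 libraries.

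In the median, members varied less over the 6 libraries as shares of the family than in normalised CPM. Some went the other way, such as Rpl13 (2.50% in CPM and 7.02% as a share) and Rps29 (8.19% and 11.2%). The coefficient of variation of normalised CPM had a median of 9.37% and ran from 2.50% for Rpl13 to 17.3% for Rpl41. Expressed as a share of the family's own counts, the median was 5.34%, from 1.69% for Rplp2 to 12.5% for Rpl3, and 37 members varied by less than 5%.

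No ribosomal protein gene passed the test between the groups. With edgeR's quasi-likelihood test and Benjamini-Hochberg adjustment over 9229 genes, 0 of 84 members had an adjusted p under 0.05, where 7 genes (0.0758%) of the whole table did, 0.0325% higher and 0.0433% lower. The smallest adjusted p among members was 0.856 with edgeR and 0.999 with DESeq2. DESeq2 called 27 genes (0.641%) of the 4215 to which it gave an adjusted p. At an unadjusted p under 0.05, edgeR gave 1 member, Rpl3l, or 1.19% of 84, against 5.71% of all genes, and that member was lower, as were 2.35% of all genes, where 3.36% were higher. Values of all 3 libraries labelled MEF2C lay above all 3 GFP libraries for 0 members (5.75% of all genes) and below them for 5 members, or 5.95% (5.33% of all genes; 11.1% in both directions together). The 5 were Rpl3l, Rps12, Rplp1, Rps24 and Rpl13, a share close to the background.

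Log2 differences (MEF2C minus GFP) ran from -0.28 to 0.22, with standard errors of 0.11 to 0.18. They were below 0 for 66 members and above 0 for 18, with a median of -0.06 beside 0.01 over all genes tested. Large subunit genes had 39 below and 7 above 0 (median -0.06), small subunit genes 24 below and 7 above (median -0.07), and the 6 tested variant copies 3 on each side (median -0.08). This direction did not hold without MEF2C replicate 3, where the median was 0.02 with 48 of 85 tested members above 0. It turned as well with library totals in place of TMM, to 0.07 with 61 of 84 above 0, a scaling under which the median of all genes was 0.14, so that the family again lay below it.

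**Figure D2:**
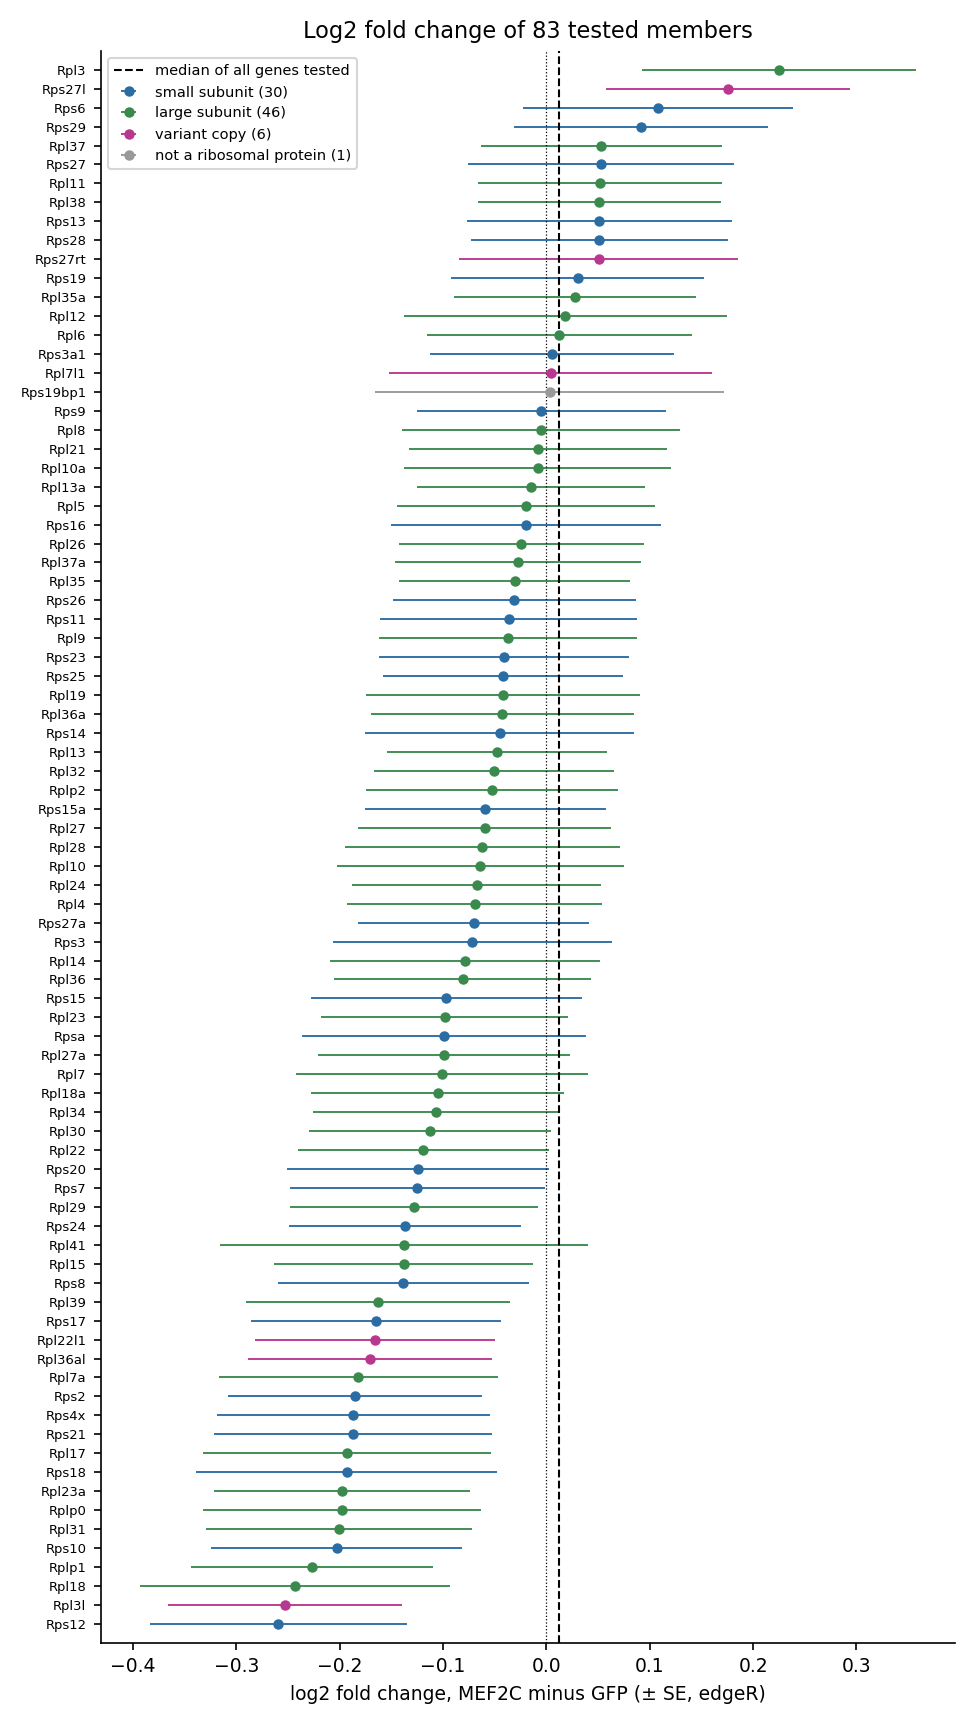
Log2 fold change (MEF2C minus GFP) of 83 of the 84 tested members in rank order, with standard errors from edgeR, coloured by role; the dashed line is the median of all 9229 genes tested. The plotted values run from -0.26 (Rps12) to 0.22 (Rpl3), most of them below 0, and none passed the adjusted threshold.

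The stalk of the large subunit, built of Rplp0 with pairs of Rplp1 and Rplp2, recruits the elongation factors. Rplp0 (chr5:115559467-115563727) stood at 1653, 1589 and 1308 normalised CPM in the MEF2C group and at 1464, 1937 and 1818 in the GFP group, and the groups overlap. Rplp1 (chr9:61913284-61914542) stood at 2050, 1992 and 1680 against 2147, 2365 and 2185, every library labelled MEF2C below every GFP library. Rplp2 (chr7:141447370-141451585) stood at 1616, 1464 and 1244 against 1422, 1571 and 1492, which overlap. The log2 differences were -0.20 ± 0.13 (SE) for Rplp0, -0.23 ± 0.12 for Rplp1 and -0.05 ± 0.12 for Rplp2, with edgeR adjusted p of 0.951, 0.927 and 0.993. Within the family's own counts Rplp1 held 2.55%, 2.61% and 2.62% against 2.90%, 2.93% and 2.84%, while Rplp2 kept to 1.92% to 2.01% in all 6 libraries.

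Among the other most counted members, Rpl41 (chr10:128548114-128549305) stood at 2984, 3091 and 1807 normalised CPM in the MEF2C group and at 2991, 2854 and 2826 in the GFP group. Only MEF2C replicate 3 was low, and the log2 difference of -0.14 ± 0.18 (edgeR adjusted p = 0.993) became 0.07 without it. Rpl35, a protein near the exit of the peptide tunnel, stood at 1807, 1669 and 1531 against 1705, 1654 and 1755 (-0.03 ± 0.11). Rps14, a protein of the small subunit's platform, stood at 1829, 1726 and 1363 against 1536, 1765 and 1773 (-0.05 ± 0.13). Both overlap between the groups, with edgeR adjusted p of 0.993 for each.

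Of the small subunit genes with low differences, Rps12 (chr10:23785183-23787275), a protein of the subunit's beak, stood at 534, 516 and 423 normalised CPM against 578, 625 and 559 (log2 difference -0.26 ± 0.12, edgeR adjusted p = 0.892), with no overlap. Rps10, which is ubiquitinated when ribosomes collide, stood at 421, 470 and 398 against 493, 534 and 456 (-0.20 ± 0.12, adjusted p = 0.928), with overlap between MEF2C replicate 2 and GFP replicate 3. Rps12 shares its sequence with a row named Rps12-ps3, identical over 494 aligned bases, whose counts were 24.2% of those of Rps12. The summed level of both was 668, 642 and 528 against 726, 766 and 685 CPM, again without overlap.

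On the other side, Rps6, the target of the S6 kinases downstream of mTOR, stood at 1155, 991 and 861 normalised CPM against 853, 1020 and 917 (log2 difference 0.11 ± 0.13, edgeR adjusted p = 0.993). MEF2C replicate 1 was the high library, and without it the difference was -0.01. Rps29, a small zinc-binding protein, stood at 340, 381 and 319 against 353, 312 and 311 (0.09 ± 0.12). Rps28, near the exit of the mRNA channel, stood at 1475, 1464 and 1170 against 1410, 1219 and 1337 (0.05 ± 0.12). All 3 overlap between the groups, and the edgeR adjusted p was 0.993 for each.

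Of the large subunit genes with the lowest differences, Rpl18 stood at 365, 319 and 253 normalised CPM against 316, 408 and 384 (log2 difference -0.24 ± 0.15). Rpl23a, at the mouth of the peptide tunnel, stood at 1248, 1117 and 946 against 1198, 1285 and 1314 (-0.20 ± 0.12). Rpl31, its neighbour at the tunnel exit, stood at 350, 361 and 296 against 352, 427 and 379 (-0.20 ± 0.13). All 3 were lowest in MEF2C replicate 3, all overlap between the groups, and their edgeR adjusted p were 0.928, 0.930 and 0.931.

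Of those above 0, Rpl37 stood at 1766, 1649 and 1418 normalised CPM against 1594, 1546 and 1518. Rpl11, which also binds and restrains Mdm2, stood at 1018, 919 and 823 against 850, 921 and 890. Rpl38, known for its part in the translation of Hox mRNAs, stood at 1143, 1183 and 977 against 1126, 1042 and 1019. Each had a log2 difference of 0.05 ± 0.12 with an edgeR adjusted p of 0.993, overlapped between the groups and was lowest in MEF2C replicate 3.

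Rpl13 and Rpl13a varied little in normalised CPM, and they were chosen after their values were seen. Rpl13 was the steadiest in normalised CPM, at 1300, 1293 and 1242 against 1320, 1307 and 1338. Its groups do not overlap, yet the log2 difference was only -0.05 ± 0.11 (edgeR adjusted p = 0.993). Rpl13a stood at 1397, 1298 and 1363 against 1267, 1428 and 1405, and in the otherwise low MEF2C replicate 3 it made up 2.13% of the family's counts, against 1.70% to 1.83% in the other 5 libraries. Rps24, the other non-overlapping gene outside the naming rule, stood at 1087, 1025 and 934 against 1096, 1159 and 1094 (-0.14 ± 0.11, edgeR adjusted p = 0.976) and was lowest in MEF2C replicate 3 like most members.

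Shares of the family's own counts remove the movement common to all members. On this scale Rps12 held 0.664%, 0.677% and 0.661% in the MEF2C group and 0.781%, 0.773% and 0.726% in the GFP group, lower in each library labelled MEF2C than in any GFP library. Rps6 held 1.44%, 1.30% and 1.35% against 1.15%, 1.26% and 1.19%, higher in each. Rpl41 held 3.71%, 4.05% and 2.82% against 4.04%, 3.53% and 3.67%, with the low value again in MEF2C replicate 3. These genes, too, were picked from their values, no test was made on this scale, and members that separate the groups on it were not counted. Rpl3l, named whatever its result, held 0.3625%, 0.400% and 0.458% against 0.467%, 0.448% and 0.457%. Its groups thus overlap on this scale, through MEF2C replicate 3. Rpl3 held 0.545%, 0.483% and 0.502% against 0.429%, 0.384% and 0.437%, higher in each library labelled MEF2C.

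**Figure D3:**
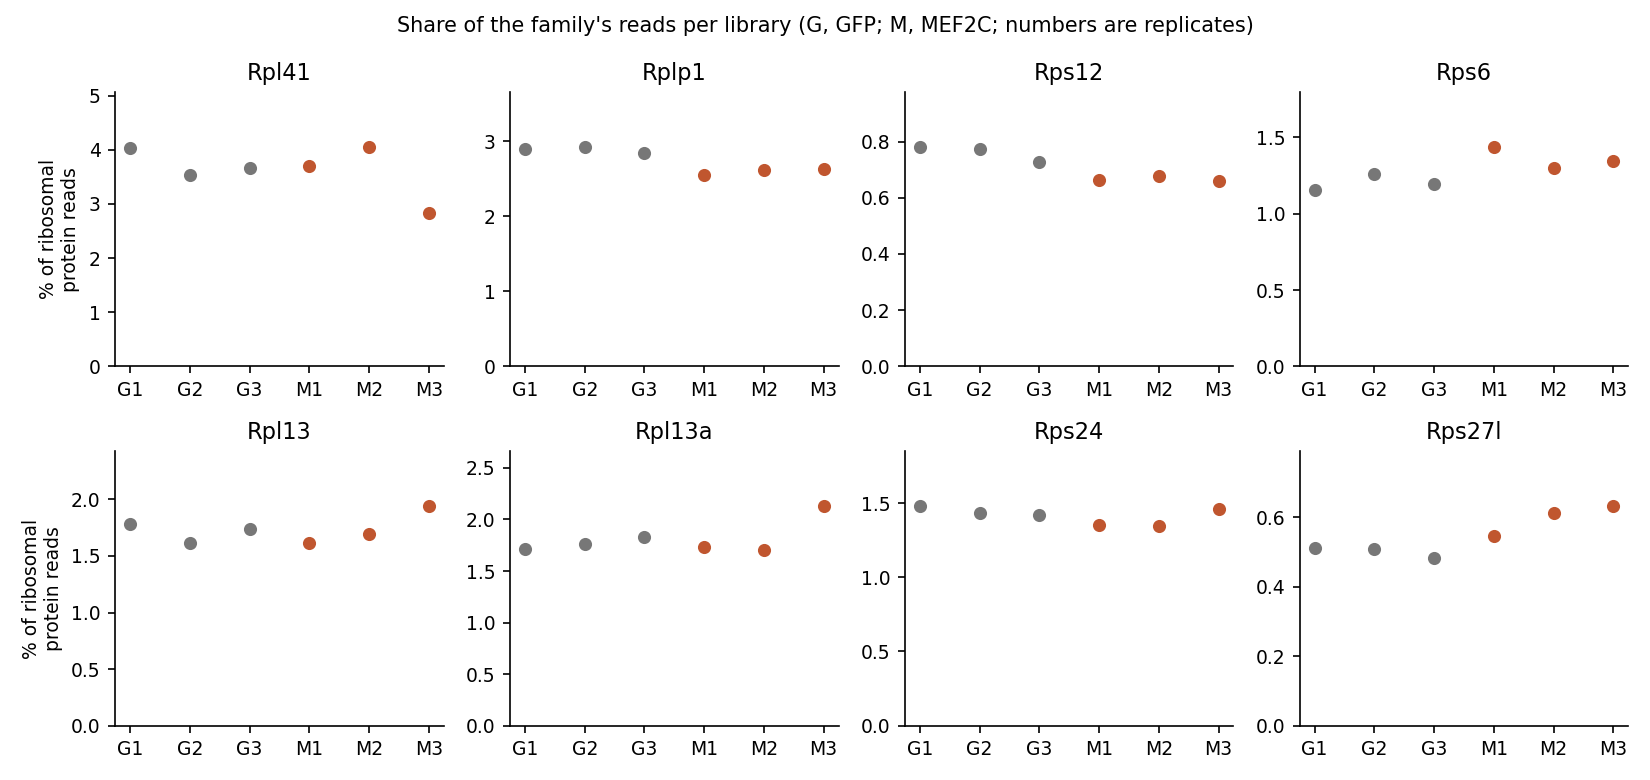
Percent of the family's own counts taken by 8 members in each library (G, GFP replicates; M, MEF2C replicates; each axis starts at 0). Rplp1 and Rps12 are lower in all 3 libraries labelled MEF2C, Rps6 and Rps27l are higher, and Rpl41 is low and Rpl13a high in MEF2C replicate 3.

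Rpl3 and its muscle copy Rpl3l lay near opposite ends of the family, though neither passed the adjusted test. They are separable by sequence: their coding regions of 1212 and 1224 bases were identical at 897 of 1210 aligned bases (74.1%). The first 60 coding bases, read from GENCODE transcripts, show how often they differ, with the 13 differing bases in capitals.
Rpl3: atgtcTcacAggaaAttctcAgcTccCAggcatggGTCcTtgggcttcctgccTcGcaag
Rpl3l: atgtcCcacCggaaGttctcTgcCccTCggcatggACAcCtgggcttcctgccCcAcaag
Rpl3l (chr17:24727820-24736143, plus strand) stood at 291, 305 and 293 normalised CPM in the MEF2C group and at 346, 362 and 352 in the GFP group. The groups do not overlap, the means being 297 ± 7.23 (SD, n = 3) and 353 ± 8.16 (SD, n = 3). Its log2 difference was -0.25 ± 0.11 (edgeR unadjusted p = 0.0423, adjusted p = 0.856), and -0.12 with library totals in place of TMM. Rpl3 (chr15:80077791-80091868, minus strand) stood at 438, 368 and 321 against 318, 310 and 337, with MEF2C replicate 3 inside the range of the GFP libraries. Its log2 difference was 0.22 ± 0.13 (edgeR adjusted p = 0.928), 0.35 with library totals in place of TMM (unadjusted p = 0.0111) and 0.09 without MEF2C replicate 1.

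Per kilobase of transcript, Rpl3l lay below Rpl3 in each library labelled MEF2C and above it in each GFP library. The same order held in normalised CPM, the transcripts being 1375 (Rpl3l) and 1351 (Rpl3) bases long. This comparison is therefore not separate from the share of Rpl3l given below. Rpl3l stood at 212, 222 and 213 normalised CPM per kilobase in MEF2C replicates 1 to 3, where Rpl3 stood at 325, 273 and 238. In GFP replicates 1 to 3 Rpl3l stood at 252, 263 and 256, where Rpl3 stood at 235, 230 and 249.

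The share of Rpl3l in the reads of both genes needs no scaling between libraries. It was 39.9%, 45.3% and 47.7% in the MEF2C group and 52.1%, 53.8% and 51.1% in the GFP group, so that every library labelled MEF2C lay below every GFP library. The means of 44.3% ± 3.99 (SD, n = 3) and 52.4% ± 1.39 (SD, n = 3) differed by -8.04 percentage points. An exact two-sided permutation test gave p = 0.1, the smallest value that 3 libraries against 3 can reach. Leaving out each library in turn gave differences of -9.74 to -5.84 points. The muscle-fibre markers given above were lower in the libraries labelled MEF2C as well, 6 of the 7 having a log2 difference below 0 with a median of -0.23, and their part in the Rpl3l difference was not tested. Other marker sums, in plain CPM without TMM, were higher in each library labelled MEF2C than in any GFP library. These were the slow-fibre and erythroid sums given above, 4 smooth muscle markers at 492, 615 and 509 CPM against 332, 413 and 344, and 5 endothelial markers at 245, 220 and 213 against 195, 192 and 184. With TMM the endothelial sum overlaps between the groups. Of the 5 endothelial markers, 3 had a log2 difference above 0 and 2 below, and each overlaps between the groups. The part of these cell types was not tested either. The 7 muscle-fibre markers include genes of fast fibres such as Mylpf, Myh4 and Tnnt3. All 6 slow-fibre markers had log2 differences above 0, from 3.12 to 4.21, though edgeR called none of them. In bulk muscle, fewer fibres, less RNA per fibre and a change of fibre type cannot be told apart. The markers of blood-forming cells and bone were highest in MEF2C replicate 1, the library with the highest Rpl3 and the lowest Rpl3l share, and without that library the difference was -5.84 points.

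**Figure D4:**
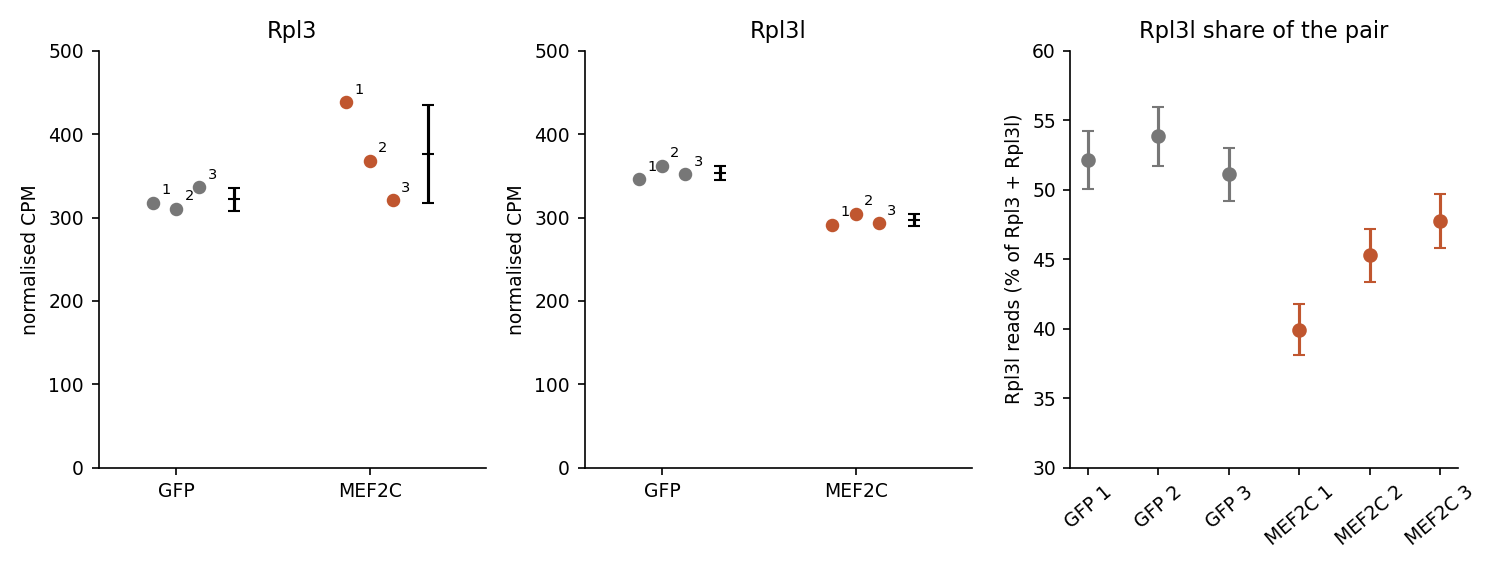
Normalised CPM of Rpl3 and of Rpl3l by library (numbers are replicates; bars give mean ± SD, n = 3), and the percent of Rpl3l among reads of both genes with exact 95% intervals for counting error (axis from 30 to 60). Rpl3l shares of 39.9% to 47.7% in the libraries labelled MEF2C lie below the 51.1% to 53.8% of the GFP libraries.

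The shares of the other variant copies beside their partners did not separate the groups. Rpl22l1, a copy of the RNA-binding protein Rpl22, took 52.4% ± 1.64 (SD, n = 3) of the reads of the pair in the libraries labelled MEF2C and 53.1% ± 2.15 in the GFP libraries. Rpl36al took 63.4% ± 2.35 of its pair with Rpl36a against 65.4% ± 1.38. Rpl7l1 took 4.94% ± 0.534 of its pair with Rpl7 against 4.57% ± 0.220. The groups overlap for each of these pairs. Rpl39l took 0.257% ± 0.0670 of its pair with Rpl39 against 0.238% ± 0.167, on at most 15 counts per library.

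In normalised CPM Rpl22l1 stood at 470, 491 and 442 in the libraries labelled MEF2C against 561, 526 and 488, and Rpl22 at 450, 456 and 373 against 449, 484 and 457. Rpl36al stood at 530, 478 and 466 against 517, 600 and 542, and Rpl36a at 300.04, 307 and 245 against 294, 306 and 278. Rpl7l1 stood at 36.3, 37.9 and 32.4 against 32.3, 39.6 and 34.5. The log2 differences of the 3 copies were -0.17 ± 0.12, -0.17 ± 0.12 and 0.00 ± 0.16 (edgeR adjusted p of 0.954, 0.952 and 0.998). Of the partners, Rpl7 stood at 795, 713 and 566 against 647, 815 and 762, Rpl39 of the peptide tunnel at 923, 987 and 750 against 1075, 968 and 935, and Rpl10, which joins the large subunit late in its assembly, at 1164, 932 and 857 against 888, 1128 and 1071. Rps4x, the X-linked copy of the small subunit protein Rps4, stood at 853, 770 and 630 against 775, 920 and 870. All 4 overlap between the groups and were lowest in MEF2C replicate 3. Rps19bp1, not a ribosomal protein, stood at 23.1, 27.1 and 24.0 against 25.8, 23.3 and 24.9, with a log2 difference of 0.00 ± 0.17.

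Rps27 has a pair of copies in the table that differ in how far reads can tell them apart. Rps27l, known as a target of p53, was identical to Rps27 at 194 of 255 coding bases (76.1%). Rps27rt was identical at 255 of 255, so its counts and those of Rps27 cannot be separated by coding sequence. The first 60 coding bases show this, with the 18 bases that differ between Rps27 and Rps27l in capitals in those lines, and Rps27rt printed without capitals because it has no difference from Rps27.
Rps27: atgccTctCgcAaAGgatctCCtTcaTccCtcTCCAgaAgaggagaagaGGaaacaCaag
Rps27l: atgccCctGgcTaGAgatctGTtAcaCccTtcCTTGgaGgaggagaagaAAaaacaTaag
Rps27rt: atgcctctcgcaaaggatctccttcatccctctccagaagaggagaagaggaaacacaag
Rps27l stood at 439, 467 and 405 normalised CPM against 379, 412 and 371, overlapping only between MEF2C replicate 3 and GFP replicate 2 (log2 difference 0.18 ± 0.12, edgeR adjusted p = 0.951). Rps27 stood at 1226, 1193 and 908 against 1105, 1032 and 1070. The sum of Rps27 and Rps27rt stood at 2066, 2012 and 1508 against 1816, 1753 and 1820, high in MEF2C replicates 1 and 2 and low in replicate 3. Rps27l took 26.4%, 28.1% and 30.8% of its pair with Rps27 against 25.5%, 28.5% and 25.7%, which overlap.

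In all, 20 members had a copy in the table with at least 95% identity over at least 200 bases of transcript, and for 17 of them that copy had counts. The copy held more than 10% of the member's counts for Rps27, Rps27rt, Rps12 and Rpl5. For Rpl5, a partner of 5S ribosomal RNA, the copy was the row of Fam69a, a neighbouring and overlapping gene, and the sum of both stood at 186, 165 and 169 CPM against 177, 184 and 191, which overlap. How reads were shared between such copies by the authors' counting is not given in the sources used here.

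Some genes outside the symbol rule also encode ribosomal proteins. Fau, a fusion of a ubiquitin-like protein with Rps30, stood at 284, 280 and 226 normalised CPM against 252, 249 and 259 (log2 difference 0.06 ± 0.13, edgeR adjusted p = 0.993), lowest in MEF2C replicate 3. The groups overlap for Fau and for Rack1, a scaffold protein of the small subunit, at 33.2, 23.7 and 19.4 against 18.4, 32.5 and 28.1.

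Of 15 other genes whose mRNAs are known to carry a TOP tract, 0 were called, 9 lay above and 6 below 0, with a median of 0.06. Tpt1, the translationally controlled tumour protein, stood at 1523, 1675 and 1659 normalised CPM against 2337, 2056 and 1790, each library labelled MEF2C below each GFP library. Its log2 difference was -0.35 ± 0.12 (edgeR unadjusted p = 0.0128, adjusted p = 0.753). Pabpc1, the poly(A)-binding protein, stood at 34.7, 29.6 and 45.0 against 29.0, 30.9 and 30.2 (0.28 ± 0.18, adjusted p = 0.930), with MEF2C replicates 1 and 3 above the GFP libraries and replicate 2 among them.

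Of 8 genes of translation elongation, 7 factors or their subunits and Eef2k, the kinase of elongation factor 2, 0 were called, with 2 above and 6 below 0 and a median of -0.05. Eef1d, a subunit of the exchange factor for elongation factor 1, stood at 188, 208 and 149 normalised CPM against 196, 235 and 225 (-0.27 ± 0.14, edgeR adjusted p = 0.928). Eef1a2, the muscle and neuron form of elongation factor 1 alpha, stood at 50.01, 45.6 and 35.6 against 45.9, 25.5 and 25.2 (0.44 ± 0.24, adjusted p = 0.928). Both overlap between the groups.

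Of 29 tested genes of ribosome biogenesis 0 were called, with 11 above and 18 below 0 and a median of -0.04. The groups did not overlap for 2 genes that were higher (6.90%, against 5.75% of all genes), Nhp2 and Nop14. The same held for 1 that was lower (3.45%, against 5.33% of all genes), Bop1. Bop1, which acts in maturation of the large subunit's RNA, stood at 14.3, 17.2 and 18.2 normalised CPM against 19.3, 20.7 and 22.3, with no overlap (-0.33 ± 0.19, edgeR adjusted p = 0.928). Gnl3, the nucleolar protein nucleostemin, stood at 26.7, 23.7 and 30.5 against 29.6, 30.9 and 36.8 (-0.27 ± 0.17, adjusted p = 0.930).

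Of 19 tested genes that control growth and translation 0 were called, with 9 above and 10 below 0 and a median of -0.02. Mtor, the kinase that governs TOP mRNAs, stood at 9.59, 5.48 and 9.20 normalised CPM against 3.85, 5.74 and 4.51 (0.78 ± 0.31, edgeR unadjusted p = 0.0254, adjusted p = 0.808), higher in MEF2C replicates 1 and 3 only. Eif4a2, an RNA helicase of initiation, stood at 454, 368 and 400 against 452, 522 and 517 (-0.29 ± 0.12, edgeR unadjusted p = 0.0368, adjusted p = 0.856), with overlap through GFP replicate 1.

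Of the 78 mitochondrial ribosomal proteins 0 were called, with 41 above and 37 below 0 and a median of 0.01, beside 18 above and 66 below 0 in the cytosolic family.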

How the data were processed

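The table deposited by the authors holds whole-number read counts per gene, per the file headers, and CPM of the same libraries. The deposited CPM were used only to work out each library's total, of which the listed genes made up 95.6% to 96.4%. Libraries were Oxford Nanopore PCR-cDNA from 1 µg of RNA, 14 PCR cycles, without molecular identifiers, per the labels' protocols. The submitters' processing notes name minimap2, GRCm38 and DESeq2 1.6.3. For the counting tool, annotation, strand and read filters, nothing is given in the sources used here. The table has 22036 gene rows, and 30 rows naming no gene held 0 counts.

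Counts were tested with edgeR 4.0.16 (R 4.3.3): filter by group, TMM on listed totals, robust quasi-likelihood test, no covariate, Benjamini-Hochberg adjustment over 9229 genes, calls at adjusted p under 0.05. Tested on simulated data with 200 changed genes among 9229, it recovered 54.3% of 2-fold and 99% of 4-fold changes, and 11.9% of its calls were false. The simulated spread was the fitted one, for genes drawn at random, so this recovery need not hold for every gene. In the data the 6 slow-fibre markers, at log2 differences of 3.12 to 4.21, were not called. Same-group libraries differed by more than sampling noise (chi-square per degree of freedom 5.65 to 11.7). Same-numbered libraries of the 2 groups did not deviate together, and nothing says whether the numbers pair them, so the main test used no pairing. Transcript length, GC content and gene coordinates came from GENCODE vM21 (GRCm38), copies from minimap2 2.31, permutation tests and intervals from scipy 1.17.1. The coding region was the longest open reading frame of the main transcript. The 7 left-out pseudogene symbols held 5781 counts, 0.345% of the family's.

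Named were Rpl3, Rpl3l, the stalk genes, the 5 most counted members, the 8 members with the smallest p in each direction, variant copies with partners, Rps19bp1, and up to 2 members per other list; Rps24, Rpl13, Rpl13a, Rps27rt, Rpl5 and Rack1 were added after their values were seen. The results of 2 genes that the rule names are not reported here. Members and lists were chosen with earlier results of these data known. The alternatives were DESeq2 1.42.0, limma-voom 3.58.1, other scalings and filters, non-robust dispersion, a replicate block, length and GC corrections (loess, span 0.3) and leaving out each library.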

Additional observations from a re-analysis of the deposited data

How the results depend on the processing

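No member was called by edgeR, DESeq2 or limma-voom under any alternative. At an unadjusted p under 0.05 there was 1 member, and 0 to 14 under the alternatives, 14 with the length correction (16.7% of members, 6.36% of all genes) and 7 without GFP replicate 1 (8.24% of members, 6.83% of all genes). The number of calls among all genes was 7 and became 35 without a filter, 3 with a strict filter, 27 with the DESeq2 Wald test, 3 with limma-voom, 0 with non-robust dispersion (557 at an unadjusted p under 0.05), 4 with a GC correction and 0 to 22 when 1 library was left out, 22 without MEF2C replicate 3. With a replicate block it was 2, and the median of the family was -0.07. The same-numbered libraries correlated at -0.234, 0.0478 and -0.251, and differently numbered ones at -0.123 to 0.319. With so few libraries these values cannot show whether the numbers pair them. The family's share of counts, 0.287 points higher in the libraries labelled MEF2C, was -0.677 points without the 50 most abundant other genes. The median of -0.06 became -0.13 with a length correction and -0.10 with a GC correction, and ran from -0.15 to 0.02 when 1 library was left out.

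Of 672 values of 42 named genes under the alternatives, 623 kept their direction and side of the threshold and 49, in 18 genes, reversed. With library totals alone the values were Rplp2 0.0737, Rpl35 0.0939, Rps14 0.0812, Rpl22 0.00839, Rpl7 0.0272, Rpl36a 0.0839 and Rpl10 0.064, and with the length correction Rps29 -0.0329, Rpl37 -0.0174, Rpl11 -0.0157, Rpl38 -0.0679, Rps28 -0.0785, Rpl7l1 -0.0165, Rps27 -0.0898, Rps19bp1 -0.0619 and Fau -0.0233. Rpl7l1 and Rps19bp1, at 0.00, were -0.00499 and -0.00533 with DESeq2 size factors, -0.0093 and -0.0102 without a filter, -0.00486 and -0.00539 with the DESeq2 Wald test, -0.0454 and -0.00915 with the GC correction, and Rps19bp1 was -0.000952 with limma-voom. With 1 library left out, the ranges that crossed 0 were -0.0114 to 0.205 for Rps6, -0.0228 to 0.135 for Rpl37, -0.032 to 0.125 for Rpl11, -0.00994 to 0.151 for Rps28, -0.0726 to 0.0863 for Rpl7l1, -0.0299 to 0.177 for Rps27, -0.00459 to 0.155 for Fau, -0.00614 to 0.129 for Rpl38, -0.0721 to 0.0453 for Rps19bp1, -0.148 to 0.0416 for Rplp2, -0.273 to 0.0701 for Rpl41, -0.0965 to 0.0266 for Rpl35, -0.136 to 0.0701 for Rps14, -0.218 to 0.0228 for Rpl7, -0.105 to 0.0516 for Rpl36a and -0.208 to 0.0249 for Rpl10. The cause was not tested. With standard errors of 0.11 to 0.18 on the log2 scale and 3 libraries a group, differences of the size seen in single members were not detectable at this depth and spread.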
